A study of Mus musculus with 15 samples.

Results

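A set of 10 immediate early genes was followed through injured and antibody-treated kidney and lung of mice: *Fos*, *Fosb*, *Fosl1*, *Fosl2*, *Jun*, *Junb*, *Egr1*, *Atf3*, *Ier3* and *Myc*. They were found by symbol, each as a single entry, so that the set held 10 of the 56748 genes in the deposited table. Immediate early genes are transcribed within minutes of a growth factor, cytokine, stress or injury signal, without new protein being made first. The Fos and Jun proteins pair through leucine zippers to form the transcription factor AP-1. In fibrotic kidney and lung, AP-1 is known for its action on matrix, protease and chemokine genes, and EGR1 is known as a factor that acts on collagen genes downstream of TGF-β.

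The series held 15 libraries, with 3 in each of 5 groups, all from male wild-type C57Bl/6 mice. WTK was kidney of mice given vehicle, with no antibody named. IgGK and LepK were kidney of mice given a single intraperitoneal dose of folic acid at 200 mg/kg, which injures the tubule, and then 10 mg/kg of either control IgG or LepAb, a leptin-neutralizing antibody, every other day. The mice of all 3 kidney groups were 10 to 12 weeks old and were euthanized at day 28, and those of IgGK and LepK received antibody for 21 days. IgGL and LepL were lung of 12-week-old mice given intratracheal bleomycin at 1.5 units/kg, which injures the alveoli, and then IgG or LepAb at 10 mg/kg for 14 days up to euthanasia at day 14. Leptin is the satiety hormone of adipose tissue, and LepAb blocks it. The comparisons address whether neutralizing leptin alters the injured organ. No vehicle lung was analysed here, and the organs differ in injury, day and antibody course, so organ, injury and day cannot be told apart.

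Expression is given as normalized CPM, the reads counted on a gene scaled to the size of the library and by TMM within each organ, with a library taken as 1 mouse and the error as the SD of 3 libraries. Nothing in the labels says how the mice of a group were housed or collected, so p-values measure the spread between these libraries. The groups compared were IgGK with WTK (the injury comparison), LepK with IgGK (the kidney antibody comparison), LepK with WTK, and, in lung, LepL with IgGL (the lung antibody comparison). No antibody is named for WTK, so in both comparisons with WTK folic acid and the IgG or LepAb course cannot be told apart. A gene was called higher or lower at an absolute log2 fold change over 0.5 with an adjusted p under 0.05 by edgeR over all genes tested. Total counts per library ranged from 25913969 to 38924788, which makes 1 count worth 0.0257 to 0.0386 CPM. Kidney and lung libraries matched their labels: the summed level of 8 proximal tubule markers was 12100 to 51500 CPM in kidney and 33.8 to 162 CPM in lung, and that of 6 alveolar type 1 markers was 75.3 to 114 CPM in kidney and 3180 to 5590 CPM in lung. IgGK replicates 1 and 2 stood apart from the other kidney libraries in 5 adrenal cortex markers, whose summed level was 630 and 808 CPM in replicates 1 and 2, 16.6 CPM in replicate 3 and 5.43 to 7.64 CPM in the other kidney libraries. Results that rest on IgGK are therefore also given with replicate 3 as the only IgGK library. That choice leaves another difference: 5 adipocyte markers summed to 178, 257 and 161 CPM in IgGK replicates 1 to 3. Their sums were 24.8 to 75.3 CPM in WTK and 58.2 to 143 CPM in LepK. Replicate 3 thus lay above every WTK and LepK library in both marker lists. The part of adipose tissue in the levels of the set was not tested. In whole tissue, fewer cells of a type and less RNA per cell cannot be told apart.

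Of the 10 genes, 7 had an entry among the RefSeq promoter sequences (*Fos*, *Fosb*, *Fosl2*, *Jun*, *Junb*, *Atf3* and *Ier3*). The 250 bases before the start are shown for 5 of them, *Fos* and *Jun* as the founding AP-1 genes and *Fosl2*, *Junb* and *Atf3* as the genes called lower under LepAb in kidney. They are written 5′ to 3′ along the gene. Capitals mark TGACG on either strand, the half-site of the cAMP response element bound by the CREB and ATF factors. They also mark TGANNTCA, an 8-letter form of element bound by AP-1 and ATF dimers, which reads the same on both strands and includes the full cAMP response element TGACGTCA, and TATAA on either strand, the core of the TATA box. Promoter coordinates are in GRCm38.p6, an older build than the one used for the counts.
*Fos* promoter, GRCm38.p6, chr12:85473640-85473889, plus strand: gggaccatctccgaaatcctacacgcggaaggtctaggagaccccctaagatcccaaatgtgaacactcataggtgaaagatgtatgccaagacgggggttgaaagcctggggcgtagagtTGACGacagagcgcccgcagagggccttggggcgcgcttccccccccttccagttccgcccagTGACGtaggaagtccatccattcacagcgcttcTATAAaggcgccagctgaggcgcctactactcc
*Jun* promoter, GRCm38.p6, chr4:95052223-95052472, minus strand: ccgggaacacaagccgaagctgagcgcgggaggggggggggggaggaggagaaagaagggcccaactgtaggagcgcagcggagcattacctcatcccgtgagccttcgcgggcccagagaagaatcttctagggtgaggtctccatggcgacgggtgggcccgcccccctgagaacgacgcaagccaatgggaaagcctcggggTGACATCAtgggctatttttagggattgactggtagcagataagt
*Junb* promoter, GRCm38.p6, chr8:84978749-84978998, minus strand: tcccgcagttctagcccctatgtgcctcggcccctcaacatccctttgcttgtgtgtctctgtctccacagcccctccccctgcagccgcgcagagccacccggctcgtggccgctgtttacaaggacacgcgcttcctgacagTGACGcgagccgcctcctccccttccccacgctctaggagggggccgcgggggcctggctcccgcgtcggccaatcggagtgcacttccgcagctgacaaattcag
*Fosl2* promoter, GRCm38.p6, chr5:32136222-32136471, plus strand: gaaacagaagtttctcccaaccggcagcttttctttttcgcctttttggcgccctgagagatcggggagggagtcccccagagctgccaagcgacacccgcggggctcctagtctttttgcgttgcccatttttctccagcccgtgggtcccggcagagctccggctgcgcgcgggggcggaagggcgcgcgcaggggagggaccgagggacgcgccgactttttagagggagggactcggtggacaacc
*Atf3* promoter, GRCm38.p6, chr1:191183334-191183583, minus strand: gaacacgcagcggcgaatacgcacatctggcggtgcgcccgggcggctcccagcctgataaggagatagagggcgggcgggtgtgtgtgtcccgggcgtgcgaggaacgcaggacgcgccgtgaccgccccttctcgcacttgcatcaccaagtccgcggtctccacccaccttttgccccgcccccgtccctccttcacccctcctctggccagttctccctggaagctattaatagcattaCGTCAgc
The TGACG half-site stood in 4 of the 7 promoters (*Fos*, *Fosb*, *Junb* and *Atf3*), and in 17.8% of all 32851 promoter windows of this length. *Fos* held it at bases -129 to -125 and -66 to -62 from the start, *Junb* at -106 to -102, *Fosb* at -60 to -56 and *Atf3* at -7 to -3. TGANNTCA stood in *Jun* alone, at bases -45 to -38, and in 11.9% of all windows. TATAA stood in *Fos* and *Ier3*, and in 22.8% of all windows. The 7-letter AP-1 element TGANTCA and the full cAMP response element TGACGTCA were in none of the 7 windows and in 6.75% and 1.55% of all windows. The 10-letter CArG box of the serum response factor was likewise in none of the 7 windows, and in 1.47% of all. These matches describe letters within 250 bases and say nothing of sites farther away, and the window of *Fosl2* held none of the marked letters.

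The set rose after folic acid with IgG. In the injury comparison, 8 of the 9 genes that passed the filter on low counts were called higher and none lower, also by DESeq2 (0 lower at an unadjusted p under 0.05), where 21.7% of all 19593 genes tested were called higher and 15.6% lower. The median log2 fold change of the 9 genes was 1.93, beside 0.04 over all genes. All 9 had every IgGK library above every WTK library, as did 32.5% of all genes tested. *Fosl1* passed no filter in kidney and was not tested there. With replicate 3 as the only IgGK library, 9 genes were called higher, the ninth being *Ier3*.

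**Figure D1:**
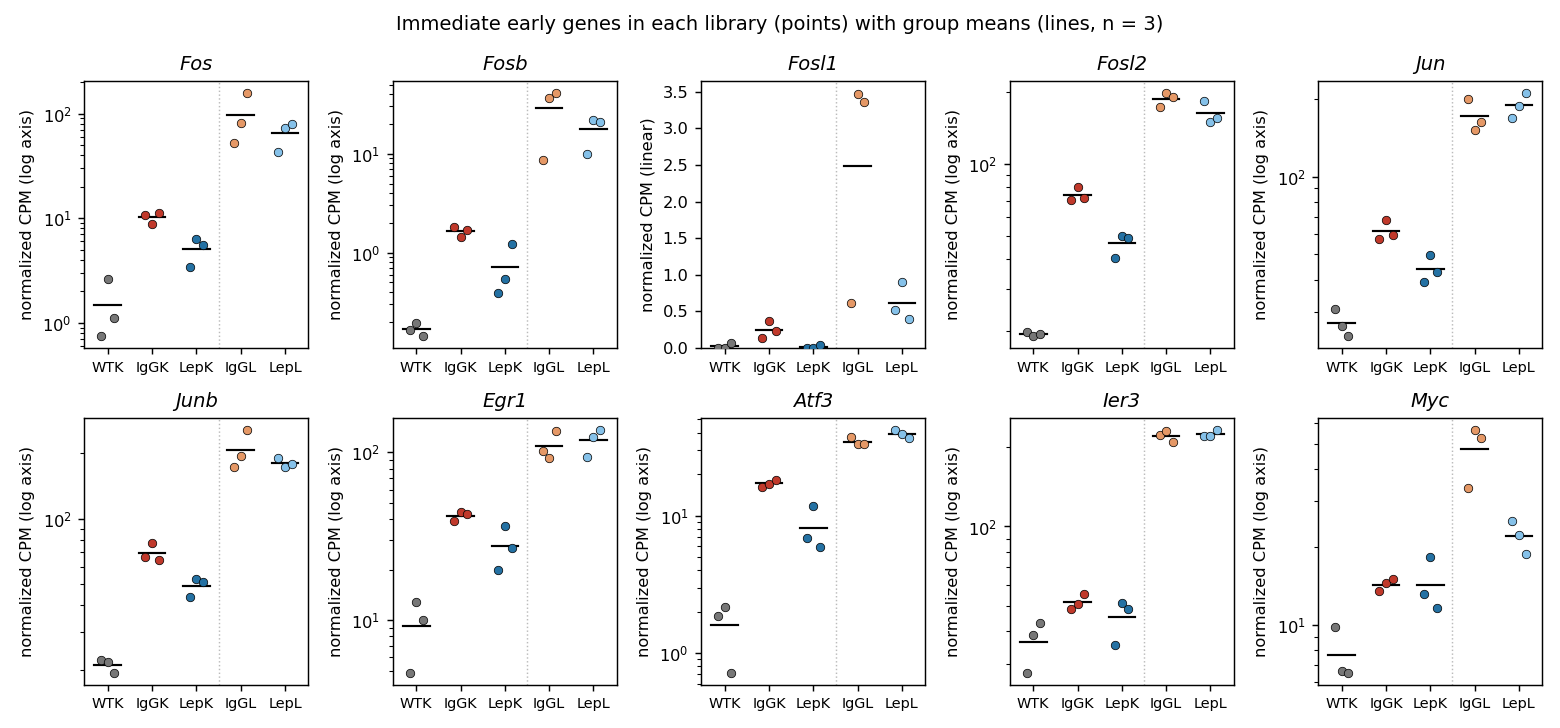
Normalized CPM of the 10 genes in each library (points) with group means (lines), on a log axis except for *Fosl1*, which has libraries at 0 and a linear axis. For *Fosl2* the 3 WTK libraries sit at 19.1 to 19.9, the 3 IgGK libraries at 70.7 to 80.4 and the 3 LepK libraries at 40.6 to 49.9, with no overlap.

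The Fos proteins form AP-1 only with a Jun partner. *Fosl2*, which encodes FRA-2, was even within each kidney group (ENSMUSG00000029135, GRCm39 chromosome 5, 32293145 to 32315186, plus strand). Its level was 19.9, 19.1 and 19.5 CPM in WTK replicates 1 to 3, 70.7, 80.4 and 72.1 CPM in IgGK, and 40.6, 49.9 and 49.2 CPM in LepK. The 3 groups did not overlap, and LepK lay between WTK and IgGK in every library. The log2 fold change in the injury comparison was 1.93 (SE 0.09, adjusted p = 1.9e-08). *Fosl2* fell by 0.68 (log2) in the kidney antibody comparison (SE 0.09, adjusted p = 0.000395), and it was still 1.26 above WTK (SE 0.09, adjusted p = 2.02e-06). It was the sole gene of the set that kept its LepK call with each of the 9 kidney libraries left out in turn, and it also kept it with IgGK replicate 3 as the only IgGK library.

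*Fos* itself, the prototype of the family (ENSMUSG00000021250, chromosome 12, 85520664 to 85524047, plus strand), was less even than *Fosl2* between the WTK libraries. It had 0.748, 2.61 and 1.12 CPM in WTK, 10.7, 8.83 and 11.2 CPM in IgGK, and 3.42, 6.34 and 5.58 CPM in LepK. Each LepK library lay above each WTK library and below each IgGK library. *Fos* rose by 2.78 (log2) in the injury comparison (SE 0.37, adjusted p = 3.88e-05), a 6.86-fold difference. Under LepAb in kidney its log2 fold change was -1.0, with a 95% interval of -1.73 to -0.28, and it was not called (SE 0.33, adjusted p = 0.0509). *Fosb* (ENSMUSG00000003545, chromosome 7, 19036621 to 19043976, minus strand), whose splice form ΔFosB is known for its long life, had 0.166, 0.197 and 0.144 CPM in WTK, 1.81, 1.43 and 1.68 CPM in IgGK, and 0.395, 0.536 and 1.22 CPM in LepK. LepK replicate 3 stood nearer to IgGK than to the other LepK libraries. *Fosb* rose by 3.25 in the injury comparison (SE 0.53, adjusted p = 0.000197), and its log2 fold change of -1.20 in the kidney antibody comparison was not called (SE 0.45, adjusted p = 0.0812).

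*Fosl1*, which encodes FRA-1 (ENSMUSG00000024912, chromosome 19, 5497575 to 5505974, plus strand), was near the limit of detection in kidney. Its counts were 0, 0 and 2 in WTK, 4, 13 and 8 in IgGK, and 0, 0 and 1 in LepK, so that IgGK was the sole kidney group with a count in every library. Over the group, the ratio of IgGK to WTK was 9.65, with an exact counting interval of 2.41 to 84.1, and the ratio of LepK to IgGK was 0.0458 (interval 0.00112 to 0.28). These intervals cover counting error alone and not the spread between mice. The 3′ part of *Fosl1* overlaps *Ccdc85b* on the opposite strand, which held 24642 counts over the 15 libraries against 339 for *Fosl1*. The libraries do not keep the strand, so reads of the overlap cannot be told apart.

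Both Jun genes had smaller fitted folds after injury than the 3 Fos genes tested. *Junb* (ENSMUSG00000052837, chromosome 8, 85701113 to 85705347, minus strand), often a weaker activator than c-JUN, had 22.3, 21.9 and 19.5 CPM in WTK, 66.7, 77.4 and 64.5 CPM in IgGK, and 43.6, 52.5 and 51.0 CPM in LepK. It rose by 1.71 in the injury comparison (SE 0.10, adjusted p = 5.93e-08). Its log2 fold change of -0.504 in the kidney antibody comparison was just past the threshold of 0.5, so *Junb* was called lower (SE 0.09, adjusted p = 0.00269). *Jun* (ENSMUSG00000052684, chromosome 4, 94937271 to 94940459, minus strand), which encodes c-JUN, had 30.7, 26.5 and 24.2 CPM in WTK, 57.5, 68.2 and 59.7 CPM in IgGK, and 39.0, 49.6 and 42.9 CPM in LepK. It rose by 1.19 in the injury comparison (SE 0.11, adjusted p = 1.78e-06), and its log2 fold change of -0.496 in the kidney antibody comparison was just short of the threshold (SE 0.11, adjusted p = 0.00655). *Jun* and *Junb* thus fell on opposite sides of the call with nearly the same value, and the 3 groups of libraries did not overlap for either gene. A stretch of *Junb* overlaps *Prdx2* on the opposite strand (85936 counts against 52709 for *Junb* over 15 libraries), and *Jun* overlaps the antisense RNA *Junos* (1675 counts against 49594).

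*Atf3*, a stress-response factor that pairs with Jun proteins (ENSMUSG00000026628, chromosome 1, 190902493 to 190950236, minus strand), had the largest fitted fold of the 9 genes tested in the injury comparison. Its level was 1.87, 2.17 and 0.721 CPM in WTK, 16.2, 17.1 and 18.2 CPM in IgGK, and 6.85, 11.7 and 5.91 CPM in LepK. The IgGK libraries were close together, and LepK replicate 2 stood above the other LepK libraries while still below each IgGK library. *Atf3* rose 10.9-fold in the injury comparison (log2 3.44, SE 0.33, adjusted p = 2.69e-06). It fell by 1.07 (log2) in the kidney antibody comparison (SE 0.29, adjusted p = 0.0194). The direction of that fall held with every library left out in turn, but the call was lost without IgGK replicate 2, IgGK replicate 3, LepK replicate 1 or LepK replicate 3, where the adjusted p reached up to 0.0725.

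*Egr1*, a zinc finger factor of early growth response (ENSMUSG00000038418, chromosome 18), had 4.86, 12.9 and 10 CPM in WTK, 39.1, 44.2 and 42.7 CPM in IgGK, and 19.8, 36.3 and 26.8 CPM in LepK. It rose by 2.18 in the injury comparison (SE 0.27, adjusted p = 2.4e-05). All LepK libraries lay below all IgGK libraries, yet the LepK libraries were spread widely and the log2 fold change of -0.60 was not called (SE 0.25, adjusted p = 0.118).

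For *Myc* and *Ier3*, alone among the genes tested in kidney, the LepK and IgGK libraries overlapped. *Myc*, a master factor of cell growth and ribosome production (ENSMUSG00000022346, chromosome 15, 61857240 to 61862223, plus strand), had 9.84, 6.63 and 6.53 CPM in WTK, 13.5, 14.5 and 15 CPM in IgGK, and 13.2, 18.2 and 11.6 CPM in LepK. It rose by 0.90 in the injury comparison (SE 0.19, adjusted p = 0.00137). In the kidney antibody comparison its log2 fold change was 0.00, with a 95% interval of -0.40 to 0.40, and the libraries of the 2 groups overlapped. *Ier3*, a regulator of cell survival under stress (ENSMUSG00000003541, chromosome 17, 36132576 to 36133815, plus strand), had 27.8, 38.6 and 42.8 CPM in WTK, 48.5, 50.5 and 55.6 CPM in IgGK, and 35.5, 51.3 and 48.7 CPM in LepK. Its log2 fold change in the injury comparison was 0.50, not over the threshold, although no IgGK library overlapped with WTK (SE 0.15, adjusted p = 0.0154). In the kidney antibody comparison it was -0.19, with a 95% interval of -0.52 to 0.14, and the libraries overlapped. That interval includes the log2 fold changes of *Jun* (-0.496) and *Junb* (-0.504), and a difference between *Ier3* and these genes was not tested.

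Part of the set was lower in LepK than in IgGK. In the kidney antibody comparison, 3 of 9 genes were called lower (*Fosl2*, *Junb* and *Atf3*) and none higher, with 7 lower and 0 higher at an unadjusted p under 0.05 and 4 and 0 called by DESeq2, where 5.99% of all genes tested were called lower and 4.38% higher. The median log2 fold change of the 9 genes was -0.60, beside -0.01 over all genes. For 7 of the 9, every LepK library lay below every IgGK library, as it did for 19.5% of all genes tested. With replicate 3 as the only IgGK library, 1 gene was called lower: *Fosl2* kept its call, *Junb* had a log2 fold change of -0.39 (adjusted p = 0.107) and *Atf3* one of -1.15 (adjusted p = 0.168). The count was also 1 without IgGK replicate 2 and 1 without LepK replicate 1, 5 without WTK replicate 1 and 6 without LepK replicate 2.

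The set did not return to the level of vehicle kidney under LepAb. In LepK against WTK, 8 of 9 genes were called higher and none lower by edgeR and by DESeq2 (0 lower at an unadjusted p under 0.05), beside 15.2% and 7.3% of all genes tested. This comparison shares its WTK libraries with IgGK against WTK. Its log2 fold changes were 2.37 for *Atf3*, 2.05 for *Fosb*, 1.77 for *Fos*, 1.57 for *Egr1*, 1.26 for *Fosl2*, 1.21 for *Junb*, 0.90 for *Myc* and 0.69 for *Jun*, with adjusted p from 2.02e-06 to 0.00965. *Ier3*, at 0.31, was not called (SE 0.15, adjusted p = 0.137).

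**Figure D2:**
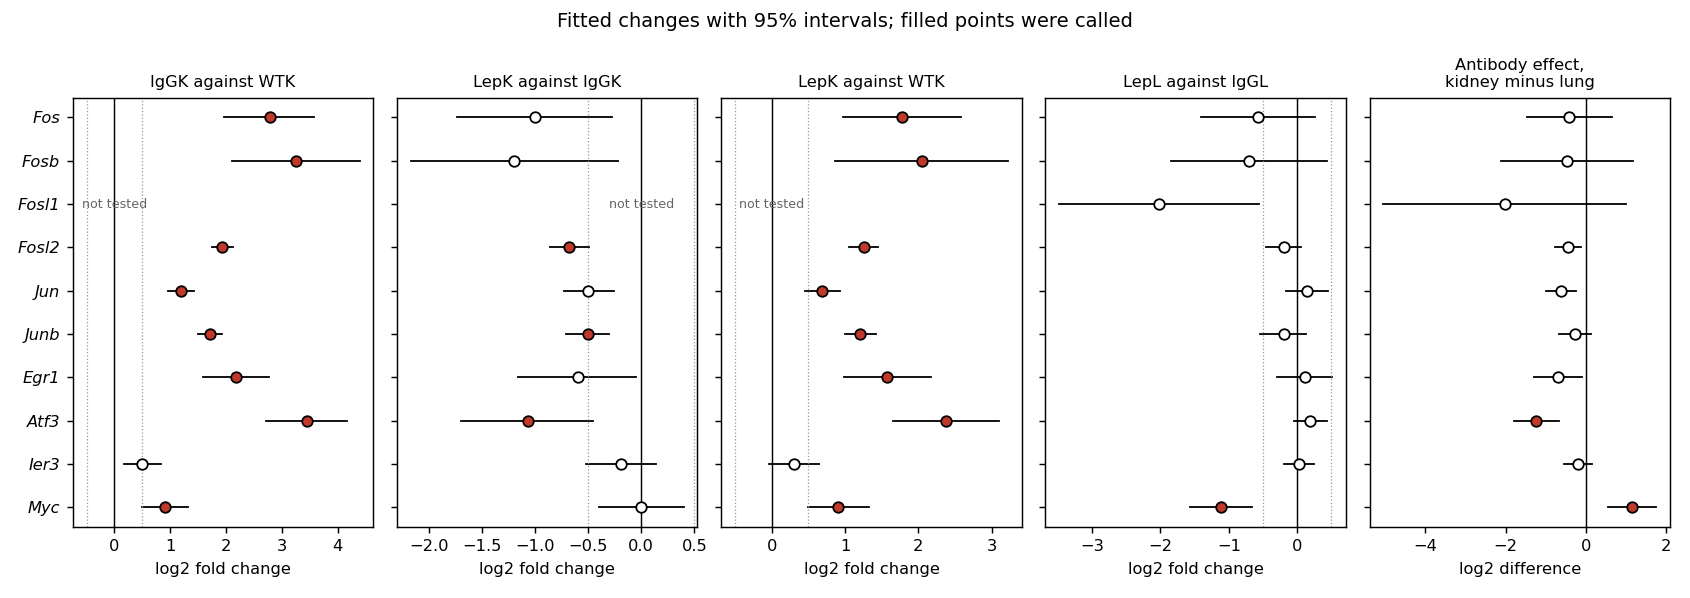
Fitted log2 fold change of each gene (points) with its 95% interval (lines) in each comparison, and, in the last panel, the kidney-minus-lung difference in antibody effect; filled points were called and dotted lines mark 0.5. *Atf3* reads 3.44 in the injury comparison and -1.07 in the kidney antibody comparison, and *Myc* reads 0.00 in the kidney antibody comparison and -1.12 in the lung antibody comparison.

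Within LepK most of the 10 genes had the same lowest and highest library. LepK replicate 1 was the lowest LepK library for 7 of the 10 genes and shared 0 counts of *Fosl1* with replicate 2, and LepK replicate 2 was the highest for 8. Within LepK, replicate 1 also had the highest sum of proximal tubule markers (35500 CPM, with 26400 and 26300 CPM in replicates 2 and 3) and the lowest sum of 8 macrophage markers (633 CPM, with 948 and 932 CPM). Its 8 fibroblast markers summed to 509 CPM, with 841 and 685 CPM in replicates 2 and 3. Its 8 injured tubule markers summed to 1030 CPM, with 1190 and 1210 CPM in replicates 2 and 3. Across groups macrophage, fibroblast, injured tubule and neutrophil markers moved with the set, and proximal tubule markers moved the opposite way. Macrophage markers summed to 200 to 230 CPM in WTK, 1780 to 2270 CPM in IgGK and 633 to 948 CPM in LepK. Fibroblast markers summed to 185 to 246, 1420 to 1610 and 509 to 841 CPM in these groups, and proximal tubule markers to 49400 to 51500, 12100 to 19000 and 26300 to 35500 CPM. Within IgGK, *Fos*, *Atf3*, *Ier3* and *Myc* were each highest in replicate 3, the library with the least adrenal signal. *Fosl1*, *Fosl2*, *Jun*, *Junb* and *Egr1* were highest in replicate 2, the library with the most, and *Fosb* in replicate 1. The part of these cell types and of adrenal tissue in the levels of the 10 genes was not tested.

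Each of the 10 genes had a higher mean FPKM in both lung groups than in any kidney group, with no test, and in lung LepAb went with a called difference in 1 of them. In the lung antibody comparison, 1 of 10 genes tested, *Myc*, was called lower and none higher, where 2.36% of all 19617 genes tested were called lower and 1.78% higher. At an unadjusted p under 0.05 the members numbered 2 lower and 0 higher, and by DESeq2 2 (*Fosl1* and *Myc*) and 0. *Myc* had 33.8, 56.6 and 52.8 CPM in IgGL and 25.1, 22.2 and 18.7 CPM in LepL. All LepL libraries lay below all IgGL libraries, and *Myc* fell by 1.12 (log2) (SE 0.20, adjusted p = 0.0337). The call held in 1 of the 6 fits that left out a library, the one without IgGL replicate 1, while the log2 fold change stayed between -1.31 and -0.98 in all 6.

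*Fos*, *Fosb* and *Fosl1* varied widely between the lung libraries. *Fos* had 52.7, 81.6 and 157 CPM in IgGL and 43.2, 73.7 and 79.3 CPM in LepL, and *Fosb* had 8.73, 36.6 and 40.9 CPM in IgGL and 9.96, 22 and 20.9 CPM in LepL. The groups overlapped for both genes. *Fosl1* was measured in every lung library, at 0.609, 3.47 and 3.36 CPM in IgGL and 0.522, 0.905 and 0.403 CPM in LepL. Its log2 fold change of -2.02 was the lowest of the 10 and was not called (SE 0.64, adjusted p = 0.092), and IgGL replicate 1 lay within the range of LepL. Without IgGL replicate 1, 3 genes were called lower in LepL.

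The other genes of the set were not called between the lung groups. *Ier3* had 222, 230 and 209 CPM in IgGL and 220, 220 and 233 CPM in LepL, with a log2 fold change of 0.03 and a 95% interval of -0.19 to 0.24. *Atf3* had 37.2, 33.2 and 33.1 CPM in IgGL and 42.0, 39.4 and 36.8 CPM in LepL, with a log2 fold change of 0.19 and an interval of -0.05 to 0.43. The remaining log2 fold changes were 0.15 for *Jun*, 0.11 for *Egr1*, -0.20 for *Junb*, -0.20 for *Fosl2*, -0.57 for *Fos* and -0.70 for *Fosb*, each with an interval that included 0.

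IgGL replicate 1 was the lowest IgGL library for 6 of the 10 genes. In log2 units it lay 1.35 below the group mean for *Fosb*, 0.97 for *Fosl1*, 0.73 for *Fos* and 0.45 for *Myc*. Of 8 macrophage markers 7 had a log2 fold change below 0 in the lung antibody comparison and 2 were called lower. Their sum followed *Lyz2*, which alveolar type 2 cells also express, at 5320, 3400 and 2200 CPM in IgGL and 6980 to 7380 CPM in LepL. Without *Lyz2* the other 7 summed to 1540, 2050 and 1730 CPM in IgGL and 864 to 1260 CPM in LepL. The 6 alveolar type 2 markers of IgGL replicate 1 summed to 12000 CPM, with 8110 and 6530 CPM in the other IgGL libraries and 17400 to 23700 CPM in LepL. Its neutrophil markers summed to 175 CPM, with 201 and 412 CPM in the other IgGL libraries and 64.7 to 104 CPM in LepL. In each of these lists IgGL replicate 1 was the IgGL library nearest to LepL, and the part of these cells in the levels of the set was not tested.

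The antibody effect was then compared between the organs, as LepK minus IgGK less LepL minus IgGL, in 1 fit of the 12 libraries of injured organs. It differed for 2 of the 10 genes, with 1 above 0 and 1 below 0, where 3.51% of all 21488 genes tested were above and 3.62% below. For *Atf3* the difference was -1.24 (SE 0.26, adjusted p = 0.0205), from a fall in kidney and a log2 fold change of 0.19 in lung. For *Myc* it was 1.15 (SE 0.28, adjusted p = 0.0312), from 0.00 in kidney and a fall in lung. *Jun* was next, at -0.61 (SE 0.17, adjusted p = 0.0503), and the other 7 genes lay between -2.02 and -0.19 with adjusted p from 0.0796 to 0.75. The *Atf3* difference was called in 9 of the 12 fits that left out a library, but not without IgGK replicate 2, LepK replicate 1 or IgGL replicate 2. That of *Myc* was called in 3 of the 12. With replicate 3 as the only IgGK library neither was called, at -1.33 for *Atf3* (adjusted p = 0.167) and 1.07 for *Myc* (adjusted p = 0.256).

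Between genes, levels were compared by the deposited FPKM, which divides by gene length. *Ier3* had the highest mean of the 10 genes in all 5 groups, from 26.6 ± 5.70 FPKM in WTK to 139 ± 4.74 FPKM in LepL (SD, n = 3). *Junb* and then *Jun* followed in all 5 groups. In WTK they did not differ beyond their spread, at 7.63 ± 0.516 and 7.03 ± 0.830 FPKM, whereas in IgGK *Junb* had 24.3 ± 2.42 and *Jun* 15.6 ± 1.43 FPKM. *Fosb* and *Fosl1* came last in every group, at 0.212 ± 0.0255 and 0.0970 ± 0.0476 FPKM in IgGK. In the middle of the order *Egr1*, *Atf3* and *Fosl2* lay at 7.55 ± 0.457, 6.42 ± 0.346 and 6.19 ± 0.438 FPKM in IgGK, of which *Atf3* and *Fosl2* overlapped in their spread. In LepK the means of *Egr1*, *Myc*, *Fosl2* and *Atf3* ran from 5.05 ± 1.50 down to 3.10 ± 1.17 FPKM, each within the spread of its neighbour.

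The make-up of the Fos family differed between the organs. *Fosl2* supplied 63.4% to 85.7% of the summed Fos family FPKM in WTK, 59.1% to 66.6% in IgGK and 65.0% to 73.4% in LepK, so it was the leading transcript in all 9 kidney libraries. In lung *Fos* supplied 53.4% to 70.5% in IgGL and 47.0% to 63.2% in LepL, and led in 5 of the 6 libraries, LepL replicate 1 being the exception with 48.3% *Fosl2*. The family sum was 1.98 to 2.57 FPKM in WTK, 9.87 to 10.1 in IgGK, 4.70 to 6.50 in LepK, 29.3 to 63.7 in IgGL and 27.5 to 37.4 in LepL. Of the sum of *Jun* and *Junb*, *Junb* made up 50.2% to 53.4% in WTK, 60.0% to 61.6% in IgGK, 59.5% to 62.2% in LepK, 54.7% to 68.6% in IgGL and 54.0% to 61.0% in LepL. Both injured kidney groups lay above WTK and overlapped each other. With *Jund*, the remaining Jun gene, in the sum, *Junb* made up 18.8% to 22.2% in WTK, 30.8% to 33.8% in IgGK and 25.8% to 28.9% in LepK, with no overlap. These shares are given as a description, with no test.

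**Figure D3:**
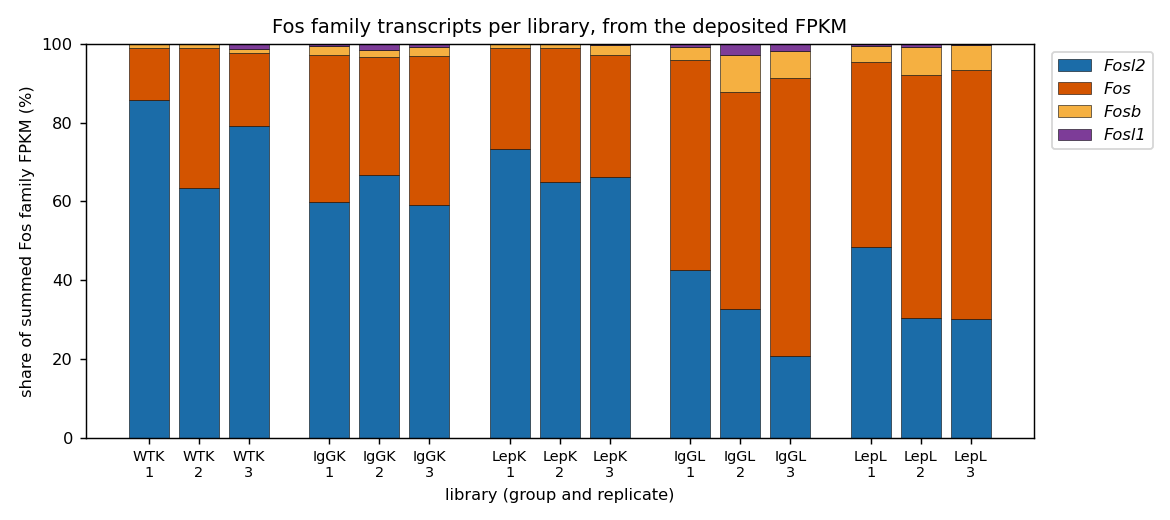
Share of each Fos family transcript in the summed Fos family FPKM of each library, in percent, with 1 bar per library. *Fosl2* holds 59.1% or more in every kidney library, and *Fos* holds 47.0% to 70.5% in the lung libraries.

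Each gene was also set beside all others by its profile over the 15 libraries, as the root mean square difference of centred log2(CPM + 1) values among 16446 genes. *Junb* was nearest to *Elf4* and to *Fosl2*, each at 0.14, and this was the sole case in which a member of the set had another among its 2 nearest genes. *Fosl2* was nearest to *Selenon* (0.11) and *Tubb5* (0.12), *Jun* to *Klf7* (0.14) and *Kank2* (0.15), and *Ier3* to *Hlx* and *Vsig2* (0.16 each). Nearest to *Fosl1* were *Ecm1* and *Gm48583* (0.20 each), and nearest to *Myc* were *Mboat1* (0.20) and *Ror2* (0.23). *Egr1* lay at 0.23 from *AI504432* and 0.27 from *Bin2*, *Atf3* at 0.33 from *Samd5* and 0.34 from *Laptm5*, *Fosb* at 0.38 from *Fgf7* and *Gfpt2*, and *Fos* at 0.42 from *S100a6* and 0.43 from *Anxa8*. The distances are not scaled to the spread of the gene itself, which was 1.95 for *Fos* and 0.65 for *Fosl1* as a root mean square. A larger distance for a more variable gene therefore does not mean a poorer match. The libraries share organ and group, so these distances are a description and carry no test.

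A wider list of 40 other immediate early genes, of which 39 were tested, was counted in the same way. In the injury comparison 28 (71.8%) were called higher and none lower (by DESeq2 28 and 0, and 1 lower at an unadjusted p under 0.05), beside 21.7% and 15.6% of all genes tested, with a median log2 fold change of 1.23 beside 0.04 over all genes. The neutrophil chemokine gene *Cxcl2* went from 0, 0.158 and 0 CPM in WTK to 6.13, 8.20 and 5.98 CPM in IgGK, a log2 fold change of 6.91 (SE 0.67, adjusted p = 2.79e-06). *Egr2*, a relative of *Egr1*, rose by 4.15 (SE 0.41, adjusted p = 3.01e-06) and the chemokine gene *Cxcl1* by 3.13 (SE 0.21, adjusted p = 1.73e-07). In LepK against WTK 23 were called higher, beside 15.2% of all genes, and 1, the stress kinase gene *Plk3*, lower. With replicate 3 as the only IgGK library, these counts of genes called higher were 26 and 22.

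Under LepAb in kidney 8 of the 39 (20.5%) were called lower and none higher (by DESeq2 9 and 0, and 1 higher at an unadjusted p under 0.05), beside 5.99% and 4.38% of all genes tested, with a median log2 fold change of -0.32. The orphan nuclear receptor genes *Nr4a1* and *Nr4a3* fell by 2.0 (SE 0.34, adjusted p = 0.00177) and 1.33 (SE 0.38, adjusted p = 0.0284), and *Egr2* fell by 1.12 (SE 0.33, adjusted p = 0.0311). *Nr4a1* is known as an abundant early gene of the adrenal cortex, and its level moved with the adrenal markers, at 24.6 and 36.3 CPM in IgGK replicates 1 and 2 and 12.5 CPM in replicate 3; the part of adrenal tissue was not tested. With replicate 3 as the only IgGK library, 1 of the 39 was called lower, and the count was 3 without IgGK replicate 2, 4 without IgGK replicate 3 and 1 without LepK replicate 1. In lung, 2 were called lower (5.13%, beside 2.36% of all genes), the kinase genes *Sgk1* (-1.44, SE 0.31, adjusted p = 0.0433) and *Plk3* (-0.98, SE 0.22, adjusted p = 0.0479), and the count was 11 without IgGL replicate 1 and 0 without any other lung library. DESeq2 called 5 lower and 0 higher in lung. At an unadjusted p under 0.05 by edgeR, 10 were lower and 1 higher, where 5357 of all 19617 genes tested had such a p in either direction. The antibody effect in kidney minus lung was above 0 for *Sgk1* (1.66, adjusted p = 0.0238) and the growth arrest gene *Gadd45g* (0.73, adjusted p = 0.0402), and below 0 for *Nr4a1* (-2.27, adjusted p = 0.0487), beside 3.51% and 3.62% of all genes tested. With a library left out, the count above 0 was 0 in 4 of the 12 fits, 1 in 5 and 8 without IgGL replicate 1. The count below 0 was 0 in 8 of the 12, those without IgGK replicate 1 and without IgGK replicate 2 among them, and 3 without IgGL replicate 1. With replicate 3 as the only IgGK library both counts were 0.

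**Figure D4:**
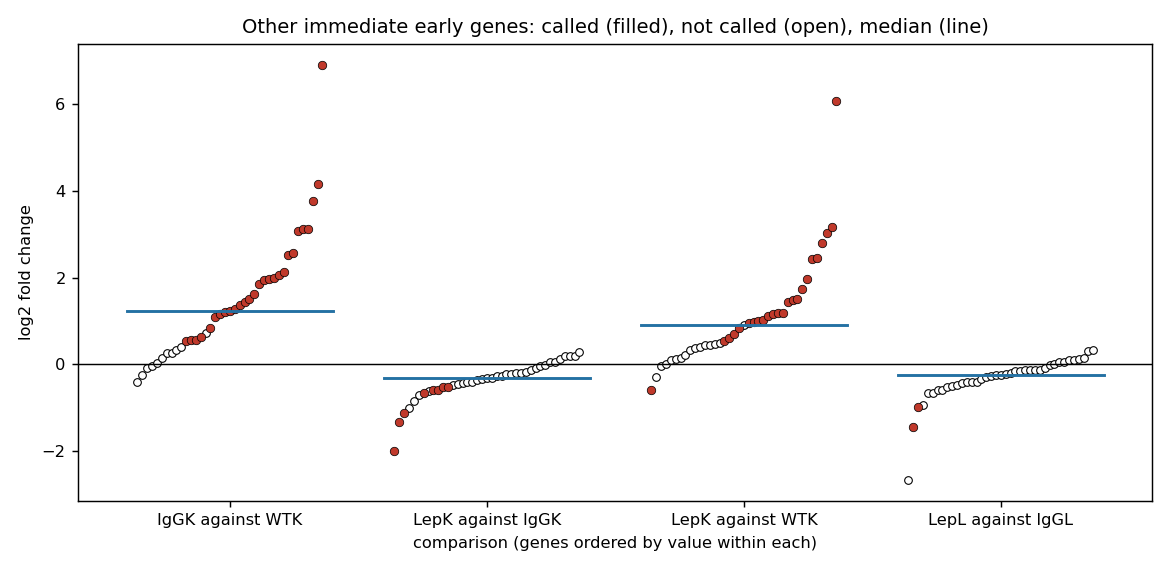
Log2 fold changes of the 39 other immediate early genes tested, ordered within each comparison; filled points were called and lines mark the median. The median is 1.23 in the injury comparison, -0.32 in the kidney antibody comparison, 0.91 in LepK against WTK and -0.25 in the lung antibody comparison.

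Other AP-1 and bZIP genes encode further partners or relatives of the Fos and Jun proteins. Of 13, 6 were called higher (46.2%) and 1 lower (7.69%) in the injury comparison, beside 21.7% and 15.6% of all genes tested, with the largest rises in *Batf3* (2.79, SE 0.25), *Maff* (2.23, SE 0.22) and *Batf* (2.07, SE 0.42) and the fall in *Maf* (-0.77, SE 0.07). *Batf2* was called lower in the kidney antibody comparison (-1.38, SE 0.38, adjusted p = 0.0229), and *Maff* was called lower in lung (-0.75, SE 0.15, adjusted p = 0.0365).

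Upstream of the set, 17 genes of the serum response and MAP kinase pathways showed 5 called higher (29.4%) and 2 lower (11.8%) in the injury comparison, near the 21.7% and 15.6% of all genes. The kinase gene *Map3k8* rose by 2.0 (SE 0.22), *Elk3*, a partner of the serum response factor, by 0.93 (SE 0.12) and *Stat3*, the factor downstream of the leptin receptor, by 0.92 (SE 0.07), while *Mapk14* fell by 0.67 (SE 0.07) and *Map2k2* by 0.51 (SE 0.07). None of the 17 was called in the kidney antibody comparison by edgeR, with 2 higher and 5 lower at an unadjusted p under 0.05 and 1 called lower by DESeq2. In lung 1 was called lower (5.88%, beside 2.36% of all genes), the SRF coactivator gene *Mrtfb* (-0.56, SE 0.12, adjusted p = 0.0405). DESeq2 also called 1 lower and 0 higher there, with 6 lower and 2 higher by edgeR at an unadjusted p under 0.05.

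Negative feedback genes limit immediate early signals. Of 18, 5 were called higher (27.8%) and 3 lower (16.7%) in the injury comparison, near the 21.7% and 15.6% of all genes, with a median log2 fold change of 0.08. *Socs3*, an inhibitor of cytokine and leptin receptor signaling, rose from 2.70, 3.44 and 2.70 CPM in WTK to 29.9, 30.3 and 28.8 CPM in IgGK and was 14.8, 17.0 and 18 CPM in LepK. Its log2 fold change was 3.33 in the injury comparison (SE 0.12, adjusted p = 7.61e-09) and -0.84 in the kidney antibody comparison (SE 0.11, adjusted p = 0.00041). *Errfi1*, an inhibitor of the EGF receptor, took the opposite course, with 686, 653 and 679 CPM in WTK, 197, 213 and 214 CPM in IgGK and 346, 309 and 311 CPM in LepK. It fell by 1.69 in the injury comparison (SE 0.07, adjusted p = 1.13e-08) and rose by 0.63 in the kidney antibody comparison (SE 0.07, adjusted p = 0.00018). *Dusp1*, a MAP kinase phosphatase and itself an early gene, was lower in IgGK than in WTK (-0.64, SE 0.13, adjusted p = 0.000796), and *Dusp2*, the phosphatase gene of immune cells, rose by 2.07 in IgGK and fell by 1.38 in LepK (adjusted p = 6.1e-05 and 0.00468). In lung 1 of the 18 (5.56%, beside 2.36% of all genes), *Zfp36l2*, was called lower (-0.51, SE 0.12, adjusted p = 0.0493). DESeq2 called 3 lower and 0 higher there, with 9 lower and 0 higher by edgeR at an unadjusted p under 0.05.

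Downstream of AP-1, 9 of 15 target genes tested were called higher (60%) and 1 lower (6.67%) in the injury comparison, beside 21.7% and 15.6% of all genes, with a median of 1.93. *Timp1*, an inhibitor of metalloproteinases, rose by 5.13 (SE 0.30), the hyaluronan receptor gene *Cd44* by 4.44 (SE 0.23) and the monocyte chemokine gene *Ccl2* by 4.18 (SE 0.29), whereas the cyclin gene *Ccnd1* fell by 1.95 (SE 0.11). In the kidney antibody comparison 7 were called lower (46.7%, beside 5.99% of all genes) and 1 higher. *Timp1* fell by 1.32 (SE 0.23, adjusted p = 0.00189) and *Cd44* by 0.80 (SE 0.18, adjusted p = 0.00895), and *Ccnd1* rose by 0.53 (SE 0.10, adjusted p = 0.00401). In the lung antibody comparison 4 of 16 were called lower (10 by DESeq2), beside 2.36% of all genes, among them *Timp1* (-2.33, SE 0.47, adjusted p = 0.0387) and *Ccl2* (-1.85, SE 0.37, adjusted p = 0.0381). The antibody effect on none of the 16 was called different between the organs by edgeR, with 4 above and 1 below 0 at an unadjusted p under 0.05 and 1 called above 0 by DESeq2.

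Of 12 genes of the MYC network, which encode partners, relatives and rivals of MYC, 2 were called higher and 2 lower in the injury comparison (16.7% each, beside 21.7% and 15.6% of all genes). *Mycl*, a relative of *Myc*, had 2.95, 1.93 and 2.31 CPM in WTK, 11.5, 10.5 and 11.2 CPM in IgGK and 6.52, 5.46 and 6.13 CPM in LepK, and fell by 0.88 in the kidney antibody comparison (SE 0.17, adjusted p = 0.0035). In lung *Mycl* was at 9.83, 5.64 and 4.69 CPM in IgGL and 10, 12.9 and 13.3 CPM in LepL. Its antibody effect in kidney minus lung was -1.69 (SE 0.34, adjusted p = 0.0174), opposite in sign to that of *Myc*. Of 15 growth genes known to depend on MYC, 1 was called higher (6.67%) and 3 lower (20%) in the injury comparison, among them the polyamine enzyme gene *Odc1*, which fell by 2.22 (SE 0.27, adjusted p = 1.61e-05). In the kidney antibody comparison 1 was called lower (6.67%, near the 5.99% of all genes), the cyclin gene *Ccnd2* (-0.72, SE 0.16, adjusted p = 0.00881). In lung 1 was called lower (6.67%, beside 2.36% of all genes), the spermidine synthase gene *Srm* (-0.87, SE 0.18, adjusted p = 0.0391). DESeq2 called 3 of these growth genes lower and 0 higher in lung. By edgeR 9 were lower and 0 higher at an unadjusted p under 0.05, with a median log2 fold change of -0.43.

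Heat shock genes encode chaperones made under cell stress. In the injury comparison, where 21.7% of all genes were called higher and 15.6% lower, 2 of 11 were called higher (18.2%), *Hspb1* (2.79, SE 0.12) and *Hspa1b* (0.92, SE 0.13), and 5 were called lower (45.5%), with *Hspd1* at -1.15 (SE 0.12). None of the 11 was called in the kidney antibody comparison by edgeR or DESeq2, with 5 higher and 1 lower at an unadjusted p under 0.05. In lung 1 (9.09%, beside 1.78% of all genes), *Hsph1*, was called higher (0.67, SE 0.15, adjusted p = 0.0461). DESeq2 called 2 higher and 0 lower there, with 4 higher and 0 lower by edgeR at an unadjusted p under 0.05. The summed level of the 11 genes was 3780 to 3840 CPM in WTK, 2010 to 2550 CPM in IgGK and 2760 to 3330 CPM in LepK. *Hspa8* dominated this sum, with means of 2100, 1190 and 1660 CPM in these groups. The sum therefore does not describe *Hspb1* (9.59, 66.4 and 49.1 CPM) or *Hspa1b* (23.5, 44.3 and 43.2 CPM).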

How the data were processed

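Poly(A) RNA-seq libraries of mouse kidney and lung, made without keeping the strand, were analysed from 1 deposited table of 56748 genes. The authors received the matrix from Novogene, and the deposited read counts are whole numbers per gene without normalization. FPKM, counts per kilobase of gene and library depth, were made by the authors and used as deposited for the order between genes only. The submitters' processing notes name GRCm39 (mm39) and DESeq2, and the aligner and counting tool are not given in the sources used here. The second deposited file lists names of comparisons and was not used. Fold changes, p-values and adjusted p-values of the authors' comparisons, also in the table, were not used.

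Groups came from title, tissue and treatment labels, with doses, ages and days from the methods. The members and lists were chosen with earlier results of these data known. Columns were matched by library code. The label that names a table column by condition contradicted title, tissue and treatment in most samples and was not used. LepL replicate 3 has a suffix in its column name, unlike the others. Replicates of a group differed by 6.73 to 87.4 in chi-square per gene, so none was the same library sequenced again. This value cannot tell a second library of the same mouse from a library of another mouse.

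R 4.3.3 with edgeR 4.0.16, limma 3.58.1 and DESeq2 1.42.0 was used. Genes were filtered by filterByExpr (minimum count 10, minimum total 15), scaled by TMM and tested by edgeR's quasi-likelihood test (glmQLFit, glmQLFTest) with Benjamini-Hochberg adjustment. The fits held 9 kidney libraries, 6 lung libraries and, for kidney minus lung, 12 libraries of injured organs, where an adjusted p under 0.05 alone was asked. SE is the size of the log2 fold change over the square root of F. The fits were tested on simulated data, in which 200 genes were changed per comparison.

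All 10 members were named. From other lists, at most 3 called genes per direction with the largest change and a mean of at least 1 CPM were named in a comparison. A few results of these lists are not reported here. For likeness, the 2 nearest genes with a mean of at least 1 CPM were named. Promoters were read from RefSeq (GRCm38.p6). Alternatives were RLE and library-size scaling, DESeq2, no filter on low counts, only the 2 groups compared, all 15 libraries in 1 fit, the replicate number as a block, each library left out in turn and, chosen after seeing the data, IgGK replicate 3 as the only IgGK library. Depths limit precision: 1 count was 0.0257 to 0.0386 CPM.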

Additional observations from a re-analysis of the deposited data

Results flagged for a closer look

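The antibody effect differed between kidney and lung, by edgeR's test of the difference itself, for 2 members. Over the 8 other pathway lists together it was called above 0 for 9 and below 0 for 5 of 141 genes. Of all genes tested, 3.51% were called above 0 and 3.62% below. The antibody effect is given here for the called genes described above. In log2 units, kidney minus lung, it was -1.24 for *Atf3* (adjusted p = 0.0205), 1.15 for *Myc* (adjusted p = 0.0312), -2.27 for *Nr4a1* (adjusted p = 0.0487), 0.73 for *Gadd45g* (adjusted p = 0.0402), 1.66 for *Sgk1* (adjusted p = 0.0238), -1.69 for *Mycl* (adjusted p = 0.0174), 1.19 for *Errfi1* (adjusted p = 0.0143), 0.66 for *Maf* (adjusted p = 0.0292), 0.58 for *Map2k2* (adjusted p = 0.0263), 0.50 for *Mapk14* (adjusted p = 0.0307), 0.86 for *Srm* (adjusted p = 0.0409) and -0.91 for *Ccnd2* (adjusted p = 0.0338). The counts of other immediate early genes called ranged from 0 to 8 above 0 and from 0 to 3 below 0 with a library left out, and *Atf3* and *Myc* lost their calls in some of these fits. *Nr4a1* had 35.7, 47.6 and 111 CPM in IgGL and 52.5, 75.9 and 111 CPM in LepL. *Sgk1* had 184, 394 and 522 CPM in IgGL and 138, 146 and 122 CPM in LepL, with 62.9 to 79.1 CPM in IgGK and 69.7 to 90.4 CPM in LepK. Groups of 3 libraries are too small for a test of single outlying libraries, so none was made.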

How the results depend on the processing

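Members called higher numbered 8 or 9 for IgGK against WTK, with 7 to 9 for LepK against WTK, under every alternative run. No called member changed direction. Members called lower in LepK against IgGK, 3 as reported, numbered 7 with library-size scaling, which moved the median log2 fold change of all genes to -0.19 there (0.48 for the injury comparison, 0.29 for LepK against WTK), 6 without the filter, 5 with only the 2 groups compared, 1 with IgGK replicate 3 as the only IgGK library, and 1 to 6 with a library left out. The lone IgGK library was then assumed to vary like the other groups.

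In LepL against IgGL, 1 member was called lower as reported, 2 with DESeq2, 4 without the filter and 0 to 3 with a library left out. For kidney minus lung, 1 member above 0 became 0 with library-size scaling, 0 with IgGK replicate 3 as the only IgGK library and 0 to 1 with a library left out. The 1 member below 0 became 3 with library-size scaling, 3 with DESeq2, 3 without the filter, 3 with all 15 libraries in 1 fit, 0 with IgGK replicate 3 as the only IgGK library and 0 to 2 with a library left out. *Fosl1* entered the kidney tests only without the filter, where it was not called, and in the fit of all 15 libraries, where it was called higher in IgGK than in WTK (adjusted p = 0.0328) and lower in LepK than in IgGK (adjusted p = 0.0408). *Fosb* in LepK against WTK lost its call in that fit (adjusted p = 0.0755) and without LepK replicate 3 (adjusted p = 0.0524). The causes were not tested.

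Same-numbered replicates did not deviate together in the way pairing asks for: the correlations of their deviations were -0.0346 to 0.182 for LepK and IgGK, -0.00493 to 0.0381 for IgGK and WTK, -0.0229 to 0.024 for LepK and WTK, and -0.0553 to 0.0715 in lung. Every sample correlated best with its own number in none of the comparisons. With the replicate number as a block, 9 members were called higher in IgGK than in WTK, 8 were called higher in LepK than in WTK, 5 were called lower in LepK against IgGK, 0 were called lower in LepL against IgGL, and 0 members lay above 0 and 1 below 0 for kidney minus lung. Depth limits *Fosl1* in kidney, where 6 of 9 libraries held 0 to 2 counts.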
